A study of Mus musculus with 5 samples.

Results

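The genes of matrix proteases and of their inhibitors were followed in embryonic stem cells (ESCs) and in the ESC-like cells grown out of teratomas. They comprised the matrix metalloproteinase genes (Mmp, 22 measured), the Adamts genes (18), the 4 genes of the tissue inhibitors of metalloproteinases (Timp), and Bmp1, Tll1, Plau, Plat, Plaur, Ctsk, Htra1, Fap and Reck, chosen by symbol and family, with earlier results of these data known. In total 53 of the 19938 genes named on the array were members. Mmp15 and Adamts2 fit the rule by name but had no probe set of their own symbol alone, and were not analysed here.

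RNA of 5 cell populations was measured on 1 type of array, the Affymetrix Mouse Gene 1.0 ST. Parental ESCs (1 array) were a line from B6CBAF1 hybrid embryos. The homologous ESC-like cells (1 array) came from a teratoma of these ESCs, injected alone under the skin of B6CBAF1 mice, and the heterologous ESC-like cells (1 array) from ESCs injected alone into B6D2F1 mice, where a lone teratoma had formed. The co-injection ESC-like cells (2 arrays, batch 1 and batch 2) came from B6D2F1 mice that received the ESCs mixed with B6D2F1 fetal fibroblasts (MFF). All 5 populations had been cultured with leukemia inhibitory factor (LIF) on inactivated fetal fibroblasts of ICR mice, so fibroblast RNA could enter every array, and the teratomas had been dissociated with trypsin and collagenase before culture. The methods give more LIF for the teratoma-derived cells than for the ESCs, while the labels give 1 concentration for both. The age of the recipients was not given in the sources used here, and nothing states that both batches were separate teratomas. The study calls the co-injection pair MFF batch 1 and MFF batch 2, so the injected fibroblasts may also have differed between them.

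Matrix metalloproteinases are zinc enzymes that cleave collagens and other proteins outside the cell, either after secretion or anchored in the membrane. They are made as inactive precursors, and the TIMP proteins block the active enzymes, as does RECK at the cell surface. ADAMTS enzymes are secreted relatives that cleave proteoglycans or trim procollagens, BMP1 and the related tolloid-like 1 remove the C-terminal propeptide of procollagens, and the plasminogen activators uPA (Plau) and tPA (Plat) start a cascade through plasmin. Fibroblasts and other mesenchymal cells are a main source of these proteins in connective tissue.

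Values are log2 expression levels as deposited, and a difference of 1 is 2-fold, the limit that the methods used for a changed gene. Differences between conditions have no replicate check, since only co-injection had a second array, and no p-value is given. An SD (n = 2) printed with a difference is the spread of the 2 co-injection arrays alone. It does not measure the precision of the difference between conditions. Across the members the 2 co-injection arrays differed by a median of 0.09 and by at most 0.31, and over all genes 99% differed by less than 0.36 (1 gene by more than 1). The array medians lay between 7.48 and 7.54. As a guide to levels that cannot be told from background, the olfactory receptor genes (1015 on the array) were used, 95% of which had a mean below 6.94; 15 of the 53 members had a mean below this level and are called dim here. In each array the 10 markers of pluripotent cells lay above it, from 8.53 upwards, but 3 of them were more than 2-fold lower in the heterologous array than in parental ESCs (Zfp42 by −1.63, Esrrb by −1.18 and Fgf4 by −1.11 on the log2 scale), with a median over the 10 of −0.52.

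Over the 53 members, 18 differed more than 2-fold in at least 1 of the 6 comparisons between the 4 conditions, 10 had a range over the 5 arrays of 0.5 to 1, and 25 a range under 0.5. The matching shares of all genes were not counted, so these numbers do not show whether the members varied more than other genes. Shares of all genes are given with each comparison below. The highest of the 5 values was that of the heterologous array for 29 of the 53 members, against 19.3% of all genes. It was that of co-injection batch 2 for 15 (29.4% of all genes) and of parental ESCs for 7 (24.6%). For the homologous array it was 2 (14%), and for co-injection batch 1 it was 0 (12.6%). The members that varied most were the inhibitors Timp2 and Timp3, followed by Mmp2, Timp1, Bmp1 and Htra1.

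**Figure D1:**
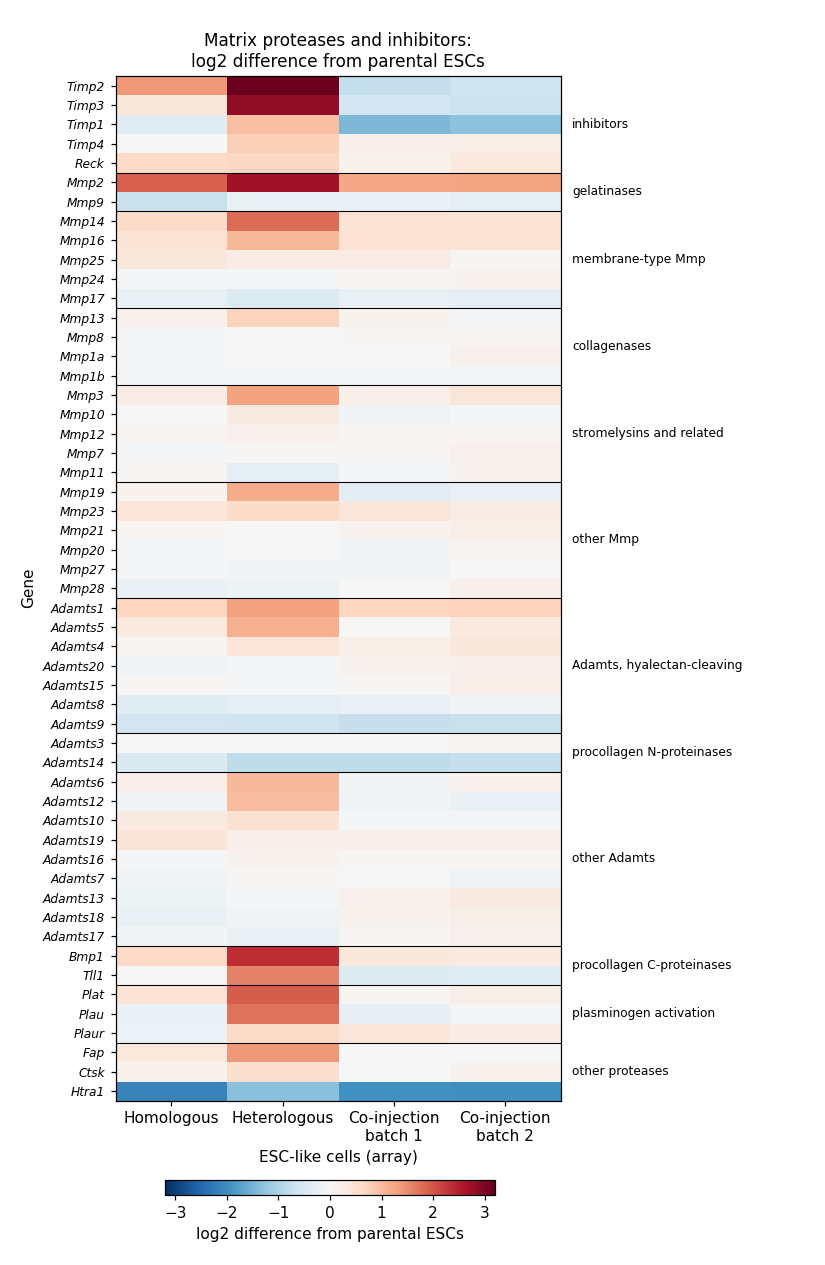
Log2 difference from parental ESCs (colour) of the 53 members (rows, grouped by role) in the 4 arrays of ESC-like cells (columns). Timp2 (3.13) and Timp3 (2.84) were the highest in the heterologous column, and Htra1 is blue in all 4 columns.

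The sequences in front of the transcription start of 5 members are shown because these genes carry the results below: Timp2, Timp3, Timp1 and the membrane-type protease gene Mmp14, which were high in the heterologous array, and Mmp3, whose promoter holds the elements typical of secreted metalloproteinase genes. They are the 250 bases before the RefSeq start in GRCm38.p6, written in the direction of the gene, at chr11:118355412-118355661 on the minus strand, chr10:86300162-86300411 on the plus strand, chrX:20869916-20870165 on the plus strand, chr14:54431348-54431597 on the plus strand and chr9:7445572-7445821 on the plus strand, in the order listed. Capitals mark GC boxes (GGGCGG on either strand), AP-1 sites (TGANTCA, which reads alike on both strands) and TATA boxes (TATAAA on either strand).
Timp2: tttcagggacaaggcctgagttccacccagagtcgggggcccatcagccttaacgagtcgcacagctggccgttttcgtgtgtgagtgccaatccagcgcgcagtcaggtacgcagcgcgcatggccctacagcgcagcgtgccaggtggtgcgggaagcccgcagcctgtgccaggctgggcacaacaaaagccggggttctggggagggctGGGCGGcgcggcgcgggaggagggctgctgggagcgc
Timp3: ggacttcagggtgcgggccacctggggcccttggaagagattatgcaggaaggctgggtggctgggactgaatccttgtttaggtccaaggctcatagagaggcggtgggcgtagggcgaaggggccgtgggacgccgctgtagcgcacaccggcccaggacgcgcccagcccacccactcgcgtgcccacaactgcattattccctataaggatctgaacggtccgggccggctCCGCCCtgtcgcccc
Timp1: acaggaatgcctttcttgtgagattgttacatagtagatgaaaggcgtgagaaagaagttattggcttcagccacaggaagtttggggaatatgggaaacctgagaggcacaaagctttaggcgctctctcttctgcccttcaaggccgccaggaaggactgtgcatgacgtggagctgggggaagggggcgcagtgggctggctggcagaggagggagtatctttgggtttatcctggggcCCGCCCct
Mmp14: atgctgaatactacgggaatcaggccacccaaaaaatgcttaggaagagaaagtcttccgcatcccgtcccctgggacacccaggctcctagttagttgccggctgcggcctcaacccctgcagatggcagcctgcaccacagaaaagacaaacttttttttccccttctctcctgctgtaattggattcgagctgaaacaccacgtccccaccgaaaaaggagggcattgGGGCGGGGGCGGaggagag
Mmp3: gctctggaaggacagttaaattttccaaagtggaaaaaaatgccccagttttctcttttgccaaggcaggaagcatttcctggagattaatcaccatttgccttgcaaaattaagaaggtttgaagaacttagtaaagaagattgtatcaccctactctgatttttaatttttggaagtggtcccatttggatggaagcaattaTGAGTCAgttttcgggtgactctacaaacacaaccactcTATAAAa
The promoters of Timp1, Timp2, Timp3 and Mmp14 held GC boxes and neither of the other motifs, with the first base of the box 8, 37 and 15 bases before the start in Timp1, Timp2 and Timp3 and overlapping none of the others; Mmp14 had them at 19 and 13. The Mmp3 promoter held an AP-1 site 46 bases and a TATA box 7 bases before the annotated start. Of 35 members with a promoter in the RefSeq table, 17 (48.6%) had a GC box, 9 (25.7%) an AP-1 site and 9 (25.7%) a TATA box, against 35.4%, 7.82% and 14.3% of the 27025 genes in the table, counting a gene once if any of its promoters held the motif. Per promoter the shares were 32.7%, 6.75% and 12.4% of all 32851. The AP-1 sites were those of Plaur and of Mmp1a, Mmp1b, Mmp3, Mmp7, Mmp10, Mmp12, Mmp13 and Mmp20. Of 6 members in this table that stood over 2-fold above parental ESCs in the heterologous array, 4 had a GC box and 1, Mmp3, an AP-1 site. These are matches of letters, and no binding was measured.

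Heterologous injection gave the most members past 2-fold from parental ESCs, 2 of them inhibitors, while most members stayed within 2-fold. Of the 53 members, 15 (28.3%) were more than 2-fold higher, against 3.98% of all genes, and 1, Htra1, was more than 2-fold lower, against 1.95% of all genes; the median difference was 0.23, against −0.04 over all genes. Beside the inhibitors Timp2 and Timp3, the 15 were 5 Mmp genes (Mmp2, Mmp14, Mmp16, Mmp3 and Mmp19), 3 Adamts genes (Adamts1, Adamts5 and Adamts6), both procollagen C-proteinase genes (Bmp1 and Tll1), both plasminogen activator genes (Plau and Plat), and Fap. Of these 15, Mmp3, Adamts5, Adamts6 and Fap were dim, and with dim genes left out 11 members were more than 2-fold higher. The matching share of all genes was not counted. Adamts6 (6.87) and Fap (6.78) stayed below the dim level even in the heterologous array. In cultures of mixed cells, more cells of a type and more RNA per cell cannot be told apart.

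Markers of fibroblasts lay higher in the same array. Of 13 measured markers 9 exceeded parental ESCs by over 2-fold and none was lower by as much, and the median level was 10.06, against 7.58 in parental ESCs, 8.17 in the homologous array and 7.43 and 7.29 after co-injection. The collagen I genes Col1a1 and Col1a2 and Dcn, Pdgfra, Pdgfrb, Postn, Prrx1, Thy1 and Twist2 were the 9, while Lum was dim in all 5 arrays. The 5 contractile-cell markers all exceeded parental ESCs by over 2-fold as well. Of 7 macrophage markers only Lyz2, at 7.02, was more than 2-fold higher. Cd68 lay above the level of olfactory receptor genes in every array, at 9.73 in parental ESCs and 8.97 in the heterologous array. Ptprc, Adgre1, Csf1r, Cd14 and Aif1 stayed below that level in every array. The part of the fibroblast, contractile and pluripotent markers in the differences of the members was not tested.

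The inhibitors were led by Timp2, whose product blocks metalloproteinases and also, with MT1-MMP, takes part in the activation of the precursor of MMP-2. Its log2 level was 8.42 in parental ESCs, 9.81 in the homologous, 11.55 in the heterologous and 7.65 and 7.79 after co-injection. The order was therefore heterologous, homologous, parental and co-injection, and each step was larger than the 0.14 between the co-injection arrays. Timp2 was 8.78-fold higher in the heterologous and 2.62-fold higher in the homologous array than in parental ESCs, whereas co-injection gave a log2 difference of −0.70 ± 0.10 (SD, n = 2).

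Timp3, which encodes the inhibitor that binds to the matrix, had a level of 9.37 in parental ESCs, 9.73 in the homologous, 12.21 in the heterologous and 8.76 and 8.68 after co-injection. The heterologous array stood 7.16-fold above parental ESCs, while both co-injection arrays lay below parental ESCs, by −0.65 ± 0.05 (SD, n = 2) on the log2 scale, and the homologous array above by 0.37.

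Timp1, a secreted inhibitor, was at 11.35 in parental ESCs, 10.96 in the homologous, 12.31 in the heterologous and 9.90 and 10.03 after co-injection. It was 1.95-fold higher than in parental ESCs in the heterologous array, just under the 2-fold limit, and 2.61-fold lower in the co-injection mean. Timp1 lies on the X chromosome inside the synapsin gene Syn1. The 422 X-linked genes that were not dim had median differences of −0.41 in the homologous, −0.43 in the heterologous and −0.46 after co-injection, and Syn1 itself of −0.92, −0.92 and −1.05. Timp1 thus went below the X median in the co-injection arrays, by −1.38 ± 0.09 (SD, n = 2) against parental ESCs, and the opposite way in the heterologous array. In the homologous array its difference (−0.39) was close to the X median.

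Timp4 and Reck varied less. Timp4 was dim, at 6.34, 6.35, 7.10, 6.49 and 6.55 in parental ESCs, the homologous, the heterologous and the co-injection arrays. Reck, the membrane-anchored inhibitor, was at 8.28 in parental ESCs, 8.92 in the homologous, 8.93 in the heterologous and 8.40 and 8.61 after co-injection, so that the homologous and heterologous arrays were nearly alike. Timp3 and Timp4 are nested in the synapsin genes Syn3 and Syn2 in the annotation. Their hosts stayed within 0.25 of parental ESCs in every array. Syn3 lay between 7.32 and 7.58, not far above the dim level, so its small range does not show that it was unchanged. Whether Timp3 moved with its host was not tested.

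**Figure D2:**
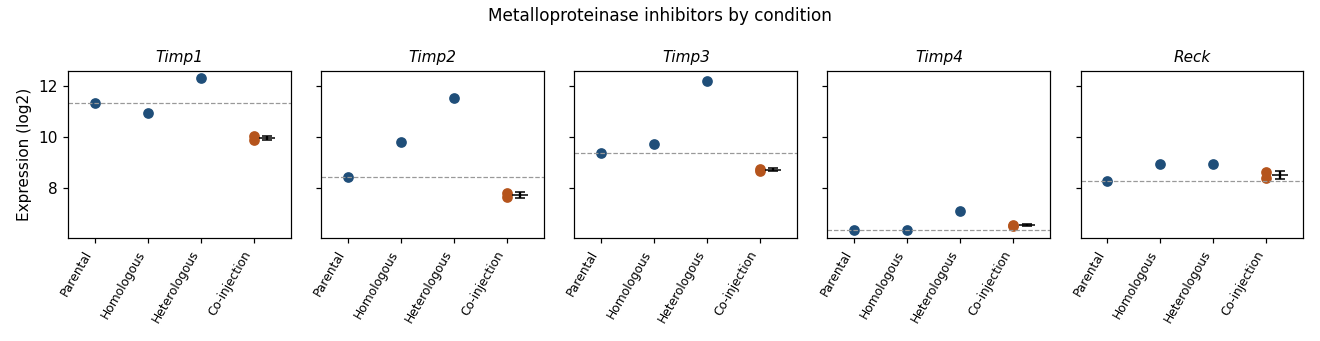
Log2 expression (vertical axis) of the 5 inhibitor genes by condition, 1 point per array, with the mean and SD of the 2 co-injection arrays as a bar and the parental level as a dashed line. Timp1, Timp2 and Timp3 were highest in the heterologous array (12.31, 11.55 and 12.21) and lowest in the co-injection arrays.

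Among the secreted metalloproteinases, the gelatinase gene Mmp2 varied most, and it was the only member to exceed parental ESCs by over 2-fold in all 3 comparisons. Its level was 8.43 in parental ESCs, 10.35 in the homologous, 11.13 in the heterologous and 9.67 and 9.70 after co-injection. All 4 ESC-like arrays lay above parental ESCs, 3.76-fold in the homologous, 6.49-fold in the heterologous and 2.38-fold in the co-injection mean. Mmp2 lies on chromosome 8, whose 753 genes above the dim level had medians of 0.22, 0.02 and 0.21 in these comparisons, smaller than the differences of Mmp2 itself (1.91, 2.70 and 1.25). The other gelatinase gene, Mmp9, went the other way in the homologous array, with 8.52 in parental ESCs, 7.80 in the homologous, 8.32 in the heterologous and 8.31 and 8.21 after co-injection, and passed 2-fold in none.

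Mmp14 encodes MT1-MMP, the membrane-type protease that activates MMP-2. It was at 9.24 in parental ESCs, 9.85 in the homologous, 11.02 in the heterologous and 9.69 in each co-injection array, and its heterologous level was 3.44-fold that of parental ESCs. Across conditions the 3 genes of this activation complex therefore did not move alike: in the co-injection arrays Mmp2 and Mmp14 lay above parental ESCs (Mmp2 by 1.25 ± 0.02, SD, n = 2, and Mmp14 by 0.45 in each array) and Timp2 below. Of the other membrane-type genes, Mmp16 was 2.08-fold higher in the heterologous array (7.58, against 6.52 in parental ESCs, 6.97 in the homologous and 6.96 in both co-injection arrays), and Mmp17, Mmp24 and Mmp25 had ranges under 0.5.

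The collagenases, stromelysins and related genes were mostly dim. In the annotation 10 Mmp genes lie next to each other on chromosome 9 (Mmp7, Mmp20, Mmp27, Mmp8, Mmp10, Mmp1a, Mmp1b, Mmp3, Mmp12 and Mmp13), and all 10 were measured. Only the stromelysin gene Mmp3 passed 2-fold, with 5.80 in parental ESCs, 6.02 in the homologous, 7.08 in the heterologous and 5.97 and 6.20 after co-injection, and Mmp13, a collagenase gene, followed with 6.61 in the heterologous array against 5.91 in parental ESCs. Mmp10 had a range of 0.41, and the other 7 ranges of 0.07 to 0.17, but these 7 were all dim, where a small range does not show that a gene was unchanged. Mmp3 and Mmp13 were dim by their mean, and only the heterologous value of Mmp3 exceeded the level of the olfactory receptor genes. Mmp19, which lies elsewhere, was at 6.98 in parental ESCs, 7.10 in the homologous, 8.16 in the heterologous and 6.63 and 6.75 after co-injection. Mmp11, a stromelysin gene with a level near 10 in every array (9.84 to 10.27), hardly varied.

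Most Adamts genes stayed within 2-fold. Of 18, 3 exceeded parental ESCs by over 2-fold after heterologous injection and none did so after homologous injection or co-injection, with a median of 0.03 in the heterologous comparison, where 3.98% of all genes were that much higher. Adamts1, a protease of the proteoglycans versican and aggrecan, was at 6.75 in parental ESCs, 7.44 in the homologous, 8.03 in the heterologous and 7.43 and 7.46 after co-injection; all ESC-like arrays lay above parental ESCs. Adamts5, the main aggrecanase of mouse cartilage, and Adamts6 were dim, and reached 7.05 and 6.87 in the heterologous array from 5.92 and 5.83 in parental ESCs. Adamts12 was just inside 2-fold, at 7.93 against 6.94 (1.99-fold). Opposite to these, Adamts9, which also cleaves versican, was lower in all ESC-like arrays, with 9.72 in parental ESCs, 9.10 in the homologous, 9.09 in the heterologous and 8.98 and 9.01 after co-injection. Adamts14, a procollagen N-proteinase gene, was at 9.17, 8.70, 8.34, 8.36 and 8.43 in the same order. Neither Adamts14 nor, by its brightest probe set, Adamts9 passed 2-fold. Other Adamts9 probe sets did so in the co-injection mean against parental ESCs (−1.27 and −1.02). The other procollagen N-proteinase gene measured, Adamts3, stayed between 8.02 and 8.10 by its brightest probe set, while its 16 probe sets ranged from −0.25 to 0.80 in the heterologous comparison with parental ESCs.

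The procollagen C-proteinases stood out in the heterologous array. Bmp1 was at 9.06 in parental ESCs, 9.69 in the homologous, 11.42 in the heterologous and 9.41 and 9.38 after co-injection. The study had picked it on these arrays, from probe sets that differed from parental ESCs in the heterologous cells but not in the others. Its array pattern is therefore not independent evidence. The study also measured Bmp1 by quantitative RT-PCR in heterologous, co-injection and homologous cells. It reported a pattern similar to the arrays, with a difference that only tended towards significance. Tll1, the relative of Bmp1, was at 7.48 in parental ESCs and 7.49 in the homologous array, 9.08 in the heterologous and 7.05 and 7.08 after co-injection. For both genes the heterologous array was apart from the other 4, by 1.72 or more for Bmp1 and 1.59 or more for Tll1. Of their enhancers, Pcolce was within 2-fold throughout and Pcolce2 was lower in all ESC-like arrays, with differences from parental ESCs of −1.45 in the homologous, −1.10 in the heterologous and −1.22 after co-injection.

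Plasminogen activation showed the same split, with the receptor less changed than the enzymes. Plau (uPA) was at 7.03 in parental ESCs, 6.83 in the homologous, 8.76 in the heterologous and 6.78 and 6.99 after co-injection. Plat (tPA) was at 7.19, 7.62, 9.11, 7.27 and 7.41, and Plaur, the uPA receptor, at 8.77, 8.57, 9.38, 9.17 and 9.01 in the same order. The heterologous array was 3.32-fold above parental ESCs for Plau, 3.81-fold for Plat and 1.53-fold for Plaur. Plat and Tll1 also lie on chromosome 8, and Plau, Bmp1 and Mmp14 all lie on chromosome 14, whose 476 genes above the dim level had a median of −0.02 in the heterologous array.

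Htra1, a secreted serine protease, was the exception. It was at 10.18 in parental ESCs, 8.04 in the homologous, 8.84 in the heterologous and 8.24 and 8.22 after co-injection. All ESC-like arrays lay more than 2-fold below parental ESCs, 4.39-fold in the homologous, 2.53-fold in the heterologous and 3.86-fold in the co-injection mean. Fap, a membrane-bound peptidase used as a marker of activated fibroblasts, was dim, with 5.39 in parental ESCs, 5.73 in the homologous, 6.78 in the heterologous and 5.36 and 5.39 after co-injection. The cathepsin gene Ctsk, a collagen-degrading protease of osteoclasts, was dim and within 2-fold.

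**Figure D3:**
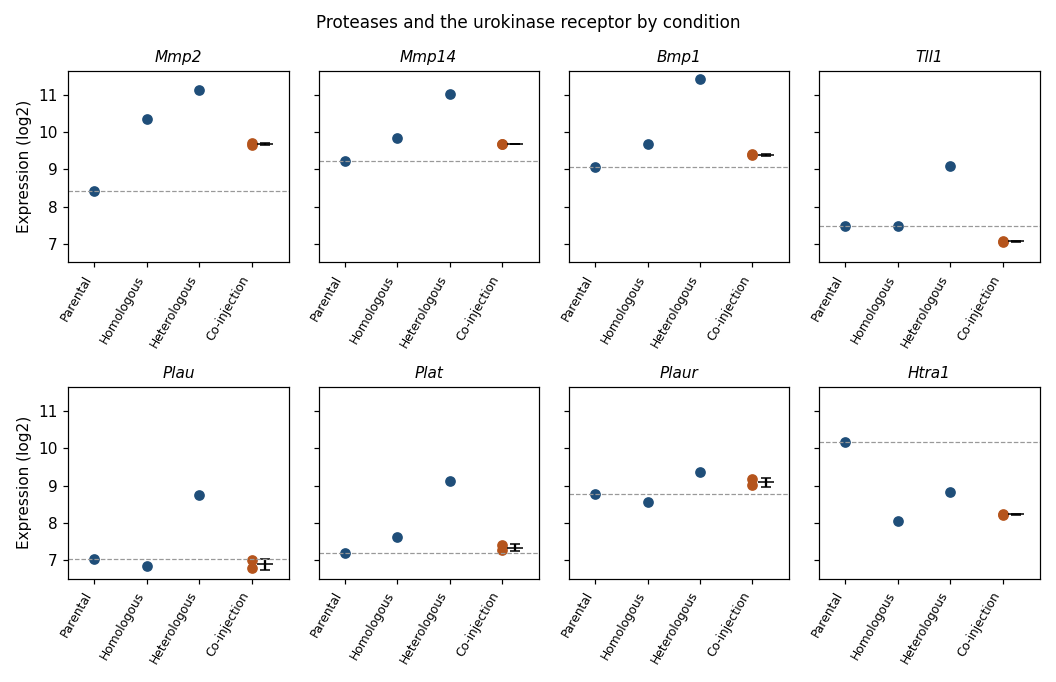
Log2 expression (vertical axis) of 7 protease genes and of the receptor gene Plaur by condition, 1 point per array, with the mean and SD of the 2 co-injection arrays as a bar and the parental level as a dashed line. Tll1, Plau and Plat lay within 0.5 of parental ESCs in all but the heterologous array (9.08, 8.76 and 9.11), and Htra1 was below parental ESCs in all ESC-like arrays.

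In homologous ESC-like cells few of these genes were more than 2-fold from parental ESCs. Timp2 and Mmp2 were more than 2-fold higher (2 of 53, or 3.77%, against 1.45% of all genes) and Htra1 more than 2-fold lower (1.89%, against 1.6% of all genes), with a median of 0.00 against −0.01 over all genes. The next highest were Adamts1 (0.69), Reck (0.64) and Bmp1 (0.64), and the next lowest Mmp9 (−0.72) and Adamts9 (−0.62). Of 13 fibroblast markers, only Pdgfrb was more than 2-fold higher, and of the epithelial markers Cldn6, while the macrophage marker Cd68 was more than 2-fold lower.

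With co-injected MFF, only Mmp2 exceeded parental ESCs by over 2-fold (1.89% of the members, against 0.647% of all genes), and Timp1 and Htra1 were more than 2-fold lower (3.77%, against 1.44% of all genes). Each of these 3 held in both batches. The median over the members was 0.06, against 0.04 over all genes. Although fibroblasts had been injected with these ESCs, fibroblast markers were not higher: none of 13 was more than 2-fold higher and 2, Prrx1 and Thy1, were more than 2-fold lower than in parental ESCs. The keratin genes Krt8 and Krt18 and Cldn6, of the epithelial markers, were more than 2-fold higher, and Acta2, of the contractile markers, was more than 2-fold lower.

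The heterologous and homologous arrays, both of ESCs injected alone, were compared without the parental array. Of the members 12 (22.6%) had an over 2-fold higher heterologous level, against 2.41% of all genes, and none more than 2-fold lower, against 0.647%. Timp3 (5.55-fold), Plau (3.81-fold), Timp2 (3.35-fold) and Bmp1 (3.30-fold) led, followed by Tll1, Plat, Timp1, Mmp14, Adamts12, Mmp19, Mmp3 and Fap. Mmp2 was not among them, with a difference of 0.79 between these arrays. Of the fibroblast markers 8 of 13 and of the contractile markers 5 of 5 were more than 2-fold higher here (medians 1.32 and 1.37). The epithelial marker Cldn6 and the endothelial marker Pecam1 were more than 2-fold lower, with a median over the 5 epithelial markers of −0.96, and Lyz2 was more than 2-fold higher.

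Co-injection was also set against heterologous injection of ESCs alone, since both used B6D2F1 recipients. Of the 53 members 14 (26.4%) were more than 2-fold lower in the co-injection mean, against 2.99% of all genes, and none more than 2-fold higher, against 0.361%. The inhibitors had the largest differences, given here with the SD of the 2 co-injection arrays alone (n = 2). Timp2 was 14.3-fold lower (log2 difference −3.83 ± 0.10), Timp3 11.2-fold (−3.49 ± 0.05) and Timp1 5.08-fold (−2.35 ± 0.09). Bmp1 and Tll1 followed (4.06-fold and 4.03-fold), then Plau, Plat, Mmp19, Mmp2, Fap, Mmp14, Adamts12, Adamts6 and Mmp3. Fibroblast markers were lower as well, 9 of 13 by more than 2-fold (median −1.91), as were all 5 contractile markers (median −1.96) and Lyz2. Of the 5 epithelial markers, Cdh1, Cldn6, Krt8 and Krt18 were more than 2-fold higher (median 1.22), as was Pecam1. With batch 2 alone Adamts6 (−0.90) and Mmp3 (−0.89) were inside 2-fold, and with batch 1 alone Adamts5 was past it (−1.12). The comparison shares the single heterologous array with the ones above.

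**Figure D4:**
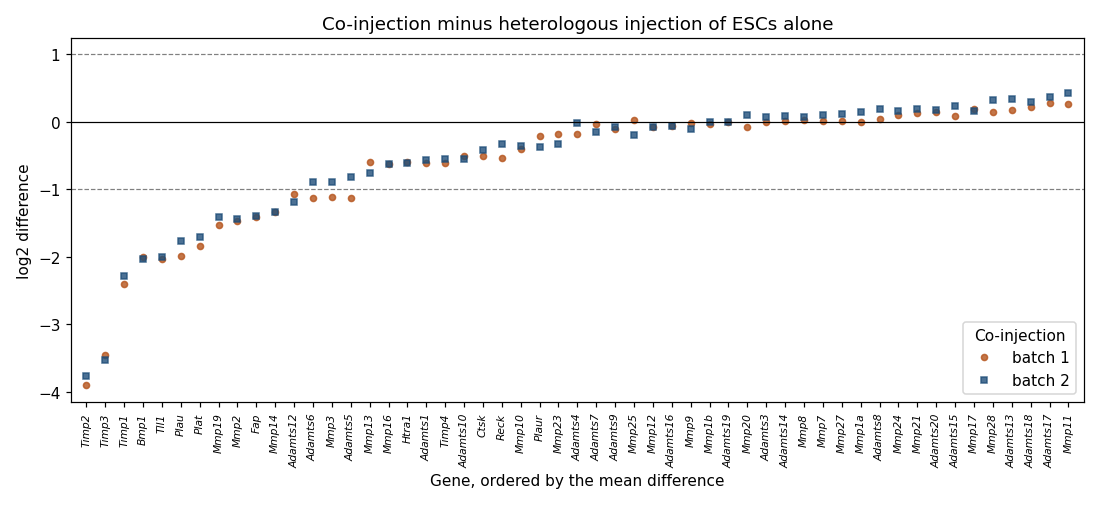
Log2 difference between each co-injection array (batch 1 circles, batch 2 squares) and the heterologous array (vertical axis) for the 53 members, ordered by their mean; dashed lines mark 2-fold. Timp2 (−3.83), Timp3 (−3.49) and Timp1 (−2.35) lie farthest down, and no member exceeds 2-fold upwards.

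Between co-injection and homologous arrays few members passed 2-fold, but their share was above that of all genes. Only Timp2 (4.25-fold) and Timp3 (2.02-fold) were more than 2-fold apart, both lower after co-injection (3.77% of the members, against 0.351% of all genes), and none was more than 2-fold higher, against 0.0752% of all genes. With batch 1 alone Timp3 was just inside 2-fold (−0.98) and Timp1 past it (−1.06), where the mean had Timp1 1.99-fold lower. Proteases differed less, with Mmp2 lower by −0.66 ± 0.02 (SD, n = 2) and Plaur higher by 0.51 ± 0.11 (SD, n = 2) on the log2 scale. Beside this, 4 of 13 fibroblast markers (Pdgfrb, Postn, Prrx1 and Thy1) and Acta2 were more than 2-fold lower, and Krt8 and Krt18 more than 2-fold higher.

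Other genes of matrix breakdown, from a list of 48 with 45 measured, were followed beside the members. After heterologous injection 8 of the 45 exceeded parental ESCs by over 2-fold (3.98% of all genes) and 2 were lower by as much (1.95% of all genes), with a median of 0.12. The highest were the serine protease gene Prss23 (2.73) and Serpinf1 (2.43), which encodes the anti-angiogenic serpin PEDF, then Anxa2 (1.70), the gene of a cell-surface receptor for plasminogen and tPA, Tfpi2 (1.48), an inhibitor of plasmin and other serine proteases, the cathepsin genes Ctsh (1.34) and Ctsb (1.18), and Adam12 and Adam9 (1.09 and 1.02). Pcsk6 and Pcolce2 were the 2 that were lower (−1.58 and −1.10). In the homologous array only Serpinf1 (1.40) was more than 2-fold higher and 4 were lower, against 1.45% and 1.6% of all genes. In the co-injection mean none was higher and 3 were lower, against 0.647% and 1.44% of all genes. Against the heterologous array, the co-injection mean was more than 2-fold lower for 10 of the 45 (2.99% of all genes). It was that much higher for 1 (0.361% of all genes), St14, an epithelial membrane protease gene (1.18). No ADAMTS-like gene passed 2-fold in any comparison, with differences from −0.66 to 0.77.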

How the data were processed

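Per the labels and the methods, the authors extracted array intensities with GCOS, applied the robust multi-array average (RMA) with quantile normalization and deposited log2 values of 35556 probe sets for each of 5 arrays. The sources used here give no versions and no genome build. The log2 values were used as deposited.

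Gene symbols came from the annotation of the platform, in which probe sets fell into 3 kinds: 21789 named exactly 1 symbol, 1621 several and 12146 none. Each of the 19938 genes was given by its brightest probe set (mean of 5 arrays); Adamts3, Adamts9 and Adamts17 were the members with several. Differences are log2 values of a condition minus another, with co-injection as the mean of its 2 arrays. A difference over 1 (2-fold) was counted, as in the methods, with no test. The number of arrays limits the precision. Chromosomes, neighbours and promoters came from GRCm38.p6; probe set positions were not used. Chromosome medians were taken over genes above the dim level.

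Members, gene lists and the rule for named genes were chosen with earlier results of these data known. Named were the members past 2-fold in any comparison, all inhibitors and plasminogen activation genes, the extremes of each comparison with parental ESCs and those near 2-fold; Adamts3, Ctsk, Mmp10, Mmp11, Mmp13, Mmp17, Mmp24 and Mmp25, and the genes of matrix breakdown beyond the extremes of their list, were added after their values were seen. Lists covered classes of members, other genes of matrix breakdown, and markers of pluripotent, fibroblast, contractile, macrophage, endothelial and epithelial cells. Of 5 endothelial markers none exceeded parental ESCs by over 2-fold in any array group, and Pecam1 was lower in the heterologous array.

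Alternatives were a 1.5-fold limit, leaving out dim genes, cyclic loess, median centring, the mean of a gene's probe sets, leaving out each co-injection array, and limma (1 residual and 0.797 prior degrees of freedom). Both the counting by fold and the limma fit were also run on simulated data with known changes. The simulated noise was that of the co-injection pair alone. This run therefore does not show how often single arrays of different conditions pass 2-fold. Background correction and slide were not varied, since scanner files were not used here. Python 3.11.15, numpy 2.4.6, pandas 2.3.3, matplotlib 3.10.9, R 4.3.3 and limma 3.58.1 were used.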

Additional observations from a re-analysis of the deposited data

Results flagged for a closer look

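Some members differed from parental ESCs in opposite directions in different ESC-like cells. In each array of such a contrast the difference exceeded 0.31, the largest between the co-injection arrays among the members. These contrasts were set by direction alone, and outside co-injection they rest on single arrays. Limma, with 1 residual degree of freedom from the co-injection pair, cannot measure the spread between conditions. Timp1 was lower than in parental ESCs in the homologous and higher in the heterologous array, with a log2 difference of −1.35 between them. Its homologous difference (−0.39) was close to the median of the X-linked genes (−0.41), so it was not particular to Timp1. For Timp1 the heterologous array exceeded the co-injection mean by 2.35. Timp2 was higher than in parental ESCs in the homologous and heterologous arrays and lower in the co-injection arrays, which were exceeded by 2.09 and 3.83. Timp3 went the same way, with 1.02 and 3.49. Tll1 was higher in the heterologous and lower in the co-injection arrays, with a difference of 2.01.

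Of the probe sets that were not the brightest of their gene, a pair naming Adamts9 passed 2-fold in the co-injection mean against parental ESCs, with −1.27 and −1.02, where the brightest had −0.72.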

How the results depend on the processing

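Across 12 counts of members (6 comparisons, higher and lower), leaving out dim genes, cyclic loess, median centring, the mean of a gene's probe sets and leaving out a co-injection array kept each count within 1.5 times. At 1.5-fold the homologous array had 6 members higher and 3 lower than parental ESCs. The heterologous array had 21 higher and 3 lower, and the co-injection mean 2 higher and 6 lower. Further, 20 were higher in the heterologous than in the homologous array. In co-injection 19 were lower than in the heterologous and 4 lower than in the homologous array. The shares of all genes at 1.5-fold were not counted, so these numbers do not show whether members moved more than other genes. Limma called 0 members in each comparison at an adjusted p under 0.05, and 0 of all genes. At an unadjusted p under 0.05 it had 15 to 30 of the 53 members and 3530 to 6842 of 19938 genes. This fit rests on 1 residual degree of freedom, that of the co-injection pair, and does not measure the spread between conditions. A lack of calls therefore does not show that genes were unchanged, and a call does not show a difference between conditions. No difference past 2-fold changed its sign. Members near 2-fold crossed it: Adamts12 in the heterologous comparison with parental ESCs (1.05 with cyclic loess), Adamts6 and Mmp3 in co-injection against heterologous (−0.90 and −0.89 without batch 1), Adamts5 there (−1.12 without batch 2), and Timp3 and Timp1 in co-injection against homologous (−0.98 and −1.06 without batch 2). No paired analysis was possible because only co-injection has numbered replicates.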
